A study of Homo sapiens with 12 samples.

Results

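The libraries of cells treated with CM10 were compared directly with the libraries of cells carrying a hairpin against ZBTB7B. All carry the label HT29, the name of a line grown from a human colon carcinoma. CM10 blocks the ALDH1A enzymes, and 3 libraries were made after its addition. The 3 shZBTB7B libraries were made from cells expressing a short hairpin RNA against ZBTB7B. Each experiment had its own 3 control libraries, named CTRL_CM10 and CTRL_shZBTB7B, which completed the 12 libraries of the series. The 6 CM10 and shZBTB7B libraries were joined by gene symbol, and a gene was kept where its level was at least 1 TPM in at least 3 of the 6. TPM, a relative transcript abundance, scales every library to the same total. The filter left 11367 of 18665 genes. The comparison asked how transcript levels under inhibition of the enzyme differed from those under knockdown of the factor that the study placed downstream of it. No library carried both perturbations, and the labels do not say whether the hairpin line was 1 clone or whether replicates were separate cultures. The p-values are thus set against the spread of these libraries alone, and that spread may be technical. Drug and hairpin were measured in separate experiments, so a difference between the perturbations and a difference between the experiments cannot be told apart in the direct comparison.

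ALDH1A enzymes oxidise retinaldehyde to retinoic acid, the ligand of the retinoic acid receptors, and ALDH1A1 is widely used as a marker of stem-like tumor cells. ZBTB7B is a zinc finger transcription factor best known for directing T cells to the helper fate. LDHA converts pyruvate to lactate at the end of glycolysis, and CD274 encodes PD-L1, a ligand by which tumor cells restrain T cells.

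The 6 libraries were less alike than replicates of a cell line usually are. Over the 11367 genes, Spearman's rho between CM10 libraries ran from 0.43 to 0.63 and between shZBTB7B libraries from 0.13 to 0.61. CM10 libraries matched shZBTB7B replicates 1 and 3 at rho 0.49 to 0.65, but shZBTB7B replicate 2 at rho -0.16 to 0.42. That replicate matched the controls, with rho 0.76 to 0.85 against CTRL_CM10 and 0.76 to 0.80 against CTRL_shZBTB7B. It therefore stood apart from the other libraries of its label, and values without it are given beside several of the results that moved. Genes above 0 numbered 8493 to 13051 in CM10 libraries and 9597 to 14354 in shZBTB7B libraries (10315 ± 2413 and 11563 ± 2483, SD, n = 3 each; two-sided exact permutation test, p = 0.5, where 0.1 is the smallest p that 3 against 3 allows). Sequencing depth is unknown, since TPM carries none.

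Markers of the labelled colon epithelium were low or absent in most libraries. The 14 genes of the list summed to 60.5, 34.9 and 84.1 TPM in CM10 libraries, against 1815, 144.5 and 214.4 TPM in shZBTB7B libraries. CDX1, GPA33 and FABP1 were listed at 0 in every CM10 library, and CDX2, the intestinal homeobox factor, was listed at 0 in 2 of 3 libraries of each group. Markers of other tissues were present. The digestive enzymes and acid pump subunits of the stomach glands summed to 689.4, 202.0 and 4537 TPM with CM10, against 3.90, 83423 and 2130 TPM with the hairpin. Smooth muscle genes summed to 10257, 2678 and 58.2 TPM with CM10, against 213.4, 540.3 and 279.2 TPM with the hairpin. The part of these other tissues in the results below was not tested.

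In TPM as deposited, most genes were lower in CM10 than in shZBTB7B libraries, and almost none passed the test. The median difference over all genes, CM10 minus shZBTB7B on the log2(TPM + 1) scale, was -0.66. After quantile normalisation it was -0.05, so differences are read relative to the median of the fit they come from. In limma's moderated test with Benjamini-Hochberg adjustment, 1 of 11367 genes was called at an adjusted p under 0.05 (0.0088%), and it was lower with CM10. At an unadjusted p under 0.05 there were 1047 genes (9.21%), 106 of them higher (0.933%) and 941 lower with CM10 (8.28%). This split depended on the scaling, with 379 higher and 520 lower after quantile normalisation, and 218 higher and 556 lower after TPM were rescaled without the most abundant shared genes described below. The median standard error of a gene's difference was 1.16, so differences of several log2 units stayed within the spread between replicates. All 3 CM10 libraries lay outside the range of the 3 shZBTB7B libraries for 2545 genes (22.4%), above it for 917 (8.07%) and below it for 1628 (14.3%). After the same rescaling the balance turned round, with 10.9% of genes above and 9.43% below.

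Of the 6 genes that the study followed, 5 could be tested and none passed. ZBTB7B, the target of the hairpin, had 3.89, 0 and 0 TPM in CM10 libraries, against 2.55, 5.97 and 0 TPM in shZBTB7B libraries. The groups overlapped (difference -0.78, SE 1.04, adjusted p = 0.73), so ZBTB7B did not mark which libraries carried the hairpin. Its controls had 1.70, 7.65 and 12.4 TPM in CTRL_CM10 and 22.3, 25.1 and 25.4 TPM in CTRL_shZBTB7B. ALDH1A1, the enzyme that CM10 inhibits, had 6.95, 11.1 and 12.7 TPM with CM10, against 0, 855 and 60.4 TPM with the hairpin (difference -1.77, SE 1.73, adjusted p = 0.65). The hairpin libraries lay on both sides of the CM10 libraries, and without shZBTB7B replicate 2 the difference became 0.49. LDHA had 63.0, 15.5 and 8.41 TPM with CM10, against 127.6, 89.5 and 86.0 TPM with the hairpin. The LDHA groups did not overlap, but the difference of -2.22 (SE 1.11), or -1.57 relative to the median gene, did not pass (adjusted p = 0.56). LDHA was at 94.9 to 303.5 TPM in CTRL_CM10 and 259.5 to 503.7 TPM in CTRL_shZBTB7B. The controls thus differed in the same direction (-1.43), but the median over all genes between the controls was -1.08. CD274 was listed at 0 in all 6 libraries and was not tested. XBP1, a factor of the unfolded protein response, had 15.1, 3.31 and 6.47 TPM with CM10, against 5.43, 91.8 and 48.0 TPM with the hairpin (adjusted p = 0.57). GATA4, a factor of heart and upper gut, had 0.88, 0 and 1.6 TPM with CM10, against 2.68, 17.7 and 3.56 TPM with the hairpin, without overlap (adjusted p = 0.57).

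The gene that passed was ROMO1, at 20:34287194-34288906 in hg19, which encodes a small protein of the inner mitochondrial membrane that modulates reactive oxygen species. ROMO1 was listed at 0 in all 3 CM10 libraries, against 225, 331 and 151 TPM in the 3 shZBTB7B libraries. Its controls resembled the hairpin libraries, with 340.4, 93.7 and 110.3 TPM in CTRL_CM10 and 139, 272 and 277 TPM in CTRL_shZBTB7B. The groups did not overlap, which the filter fixes for a gene at 0 in every CM10 library. In limma's test the adjusted p was 0.0093. No fold is given against a group listed at 0. The call was lost when any of the 6 libraries was left out (adjusted p 0.051 to 0.20) and with a pseudocount of 0.1 (adjusted p = 0.051).

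**Figure D1:**
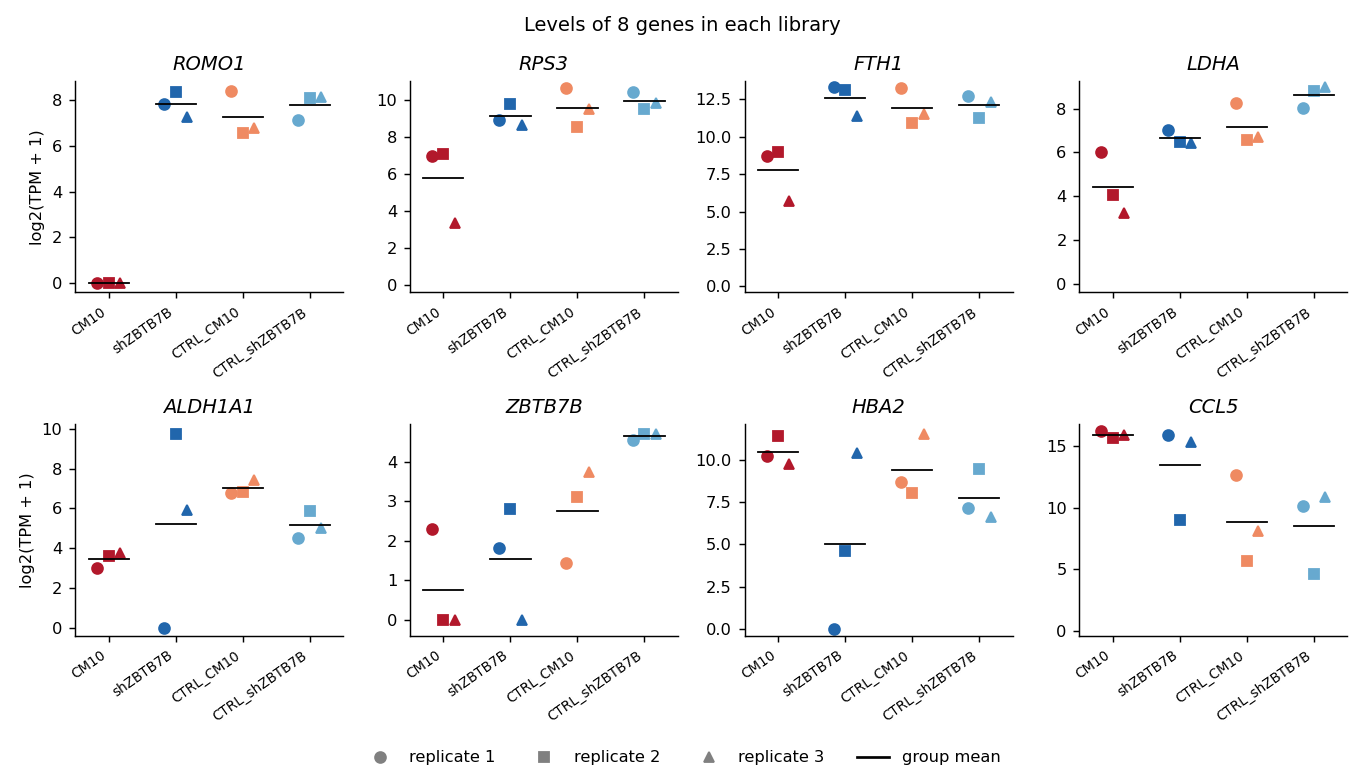
Level of 8 genes on the log2(TPM + 1) scale in each library, with CM10 left of shZBTB7B and both control groups to the right. Symbols give the replicate number and bars the group mean. ROMO1 is at 0 in the 3 CM10 libraries and at 151 TPM or more in the 3 shZBTB7B libraries, while ALDH1A1, HBA2 and CCL5 spread widely within shZBTB7B.

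ROMO1 was 1 of 14 genes listed at 0 in every CM10 library with at least 10 TPM in every shZBTB7B library, while 0 genes showed the reverse. The others did not pass the test. They included TFF3 and LCN2, which encode a mucosal repair peptide and an iron-scavenging lipocalin, the apolipoprotein gene APOC1, the mitochondrial cristae protein gene APOO, the adaptor subunit AP1M2, the noncoding RNA CRNDE, CDC42EP5, FAM3D, PAM16, PDZK1IP1, GPR160 and ABHD17C. LCN2 was at 0 in all 3 CM10 libraries, against 168.88, 24.95 and 188.37 TPM in shZBTB7B libraries (limma, adjusted p = 0.098). It was high in hairpin replicates 1 and 3, while its controls reached 127.94 TPM in 1 CTRL_CM10 library and at most 5.25 TPM in the other 5. APOC1, a lipoprotein component abundant in liver and macrophages, was at 0 with CM10, against 112.42, 158.10 and 25.50 TPM with the hairpin (adjusted p = 0.098). CDC42EP5, an effector of the small GTPase CDC42, was likewise at 0 with CM10, against 112.67, 48.22 and 44.60 TPM with the hairpin (adjusted p = 0.098). PAM16, a subunit of the motor that draws proteins into mitochondria, was at 0 with CM10, against 79.41, 44.23 and 23.96 TPM with the hairpin (adjusted p = 0.20). FAM3D, a secreted protein of the gut, was at 0 with CM10, against 215.28, 17.56 and 29.44 TPM with the hairpin (adjusted p = 0.22).

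Among the genes with the smallest p that did not pass, 4 more were low but detected in 1 CM10 library. MRPL23, a protein of the mitochondrial ribosome, had 0.90, 0 and 0 TPM with CM10, against 58.4, 204.1 and 33.2 TPM with the hairpin (limma, adjusted p = 0.14). AIF1, a macrophage marker, had 8.25, 0 and 0 TPM with CM10, against 83.2, 299.8 and 75.5 TPM with the hairpin (adjusted p = 0.20). CAPG, a gelsolin-like actin capping protein, had 1.82, 0 and 0 TPM with CM10, against 159.6, 58.1 and 22.3 TPM with the hairpin (adjusted p = 0.22). For each of the 3 genes, the library with a value above 0 was CM10 replicate 1, which listed the most genes above 0 of the 3 CM10 libraries. TMEM141 showed the same pattern, with 11.8, 0 and 0 TPM with CM10, against 150.2, 197.8 and 60.9 TPM with the hairpin (adjusted p = 0.22).

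No gene was called higher with CM10, and 106 had an unadjusted p under 0.05. The genes with the smallest p among those without overlap had adjusted p-values of 0.33 to 0.43. CCER2 had 50.6, 91.6 and 67.7 TPM in CM10 libraries, against 0, 0.55 and 29.4 TPM in shZBTB7B libraries. MREG, which encodes melanoregulin, a protein of melanosome transport, had 40.56, 69.48 and 45.01 TPM with CM10, against 3.15, 0 and 19.7 TPM with the hairpin. DMC1, the recombinase of meiosis, had 14.7, 43.1 and 30.7 TPM with CM10, against 4.6, 0 and 4.03 TPM with the hairpin. These genes were picked from those without overlap, so their lack of overlap is not a result. In CCER2 and MREG hairpin replicate 3 was the nearest to CM10. MSS51, whose yeast counterpart activates mitochondrial translation, had 49.1, 56.8 and 45.6 TPM with CM10, against 19.4, 0.30 and 7.02 TPM with the hairpin. HYLS1, a centriole protein needed for cilia, had 26.9, 55.6 and 23.5 TPM with CM10, against 5.37, 2.29 and 4.74 TPM with the hairpin. EID2B, at 16.6 to 28.5 TPM with CM10 against 0 to 5.21 TPM with the hairpin, and the tetraspanin TSPAN31, at 58.5 to 93.1 TPM against 0 to 57.1 TPM, completed the group. GOLGA6L22 and GOLGA6L1 were also higher in value but are near-identical copies of each other, so their separate levels are uncertain.

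Of the 36 gene lists, the proteins of the cytosolic ribosome had the largest share of genes without overlap. Of 77 genes on the list, 71 had all 3 CM10 libraries below all 3 shZBTB7B libraries, beside 14.3% of all genes, and 0 had them above. Their median difference was -2.53, or -1.87 relative to all genes, with single genes from -3.33 to -0.37. None was called, and 8 had an unadjusted p under 0.05. The 77 genes together took 29939, 31480 and 9755 TPM in CM10 libraries, against 76003, 212927 and 85831 TPM in shZBTB7B libraries. CM10 replicate 3 was lowest and hairpin replicate 2 highest. RPS3, a protein of the small subunit, had 124.5, 134.5 and 9.05 TPM with CM10, against 487.6, 871.2 and 403.7 TPM with the hairpin (difference -3.33, SE 1.38, adjusted p = 0.48). RPL38, of the large subunit, had 41.8, 44.8 and 19.0 TPM with CM10, against 137.9, 636.1 and 163.1 TPM with the hairpin (difference -2.85, SE 1.17, adjusted p = 0.48). RPL14, RPL17, RPL34, RPL35, RPS20 and FAU were the 6 whose groups overlapped. Ribosomal protein genes have many processed pseudogenes, and how reads were shared among such copies was not tested.

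Without the hairpin library that stood apart, the list's median relative to all genes was -1.42. With TPM rescaled without the most abundant shared genes, 69 of 76 genes were lower without overlap, beside 9.43% of all genes. Relative to all genes, the list's median ran from -2.37 to -1.24 as single libraries were left out, highest without CM10 replicate 3, and was -2.51 after quantile normalisation. Between the controls, CTRL_CM10 minus CTRL_shZBTB7B, the list's median was -0.49, beside -1.08 for all genes. Each experiment's own controls held 70591 to 361812 TPM in CTRL_CM10 and 181531 to 290941 TPM in CTRL_shZBTB7B for these genes, so the CM10 libraries were below every control library.

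**Figure D2:**
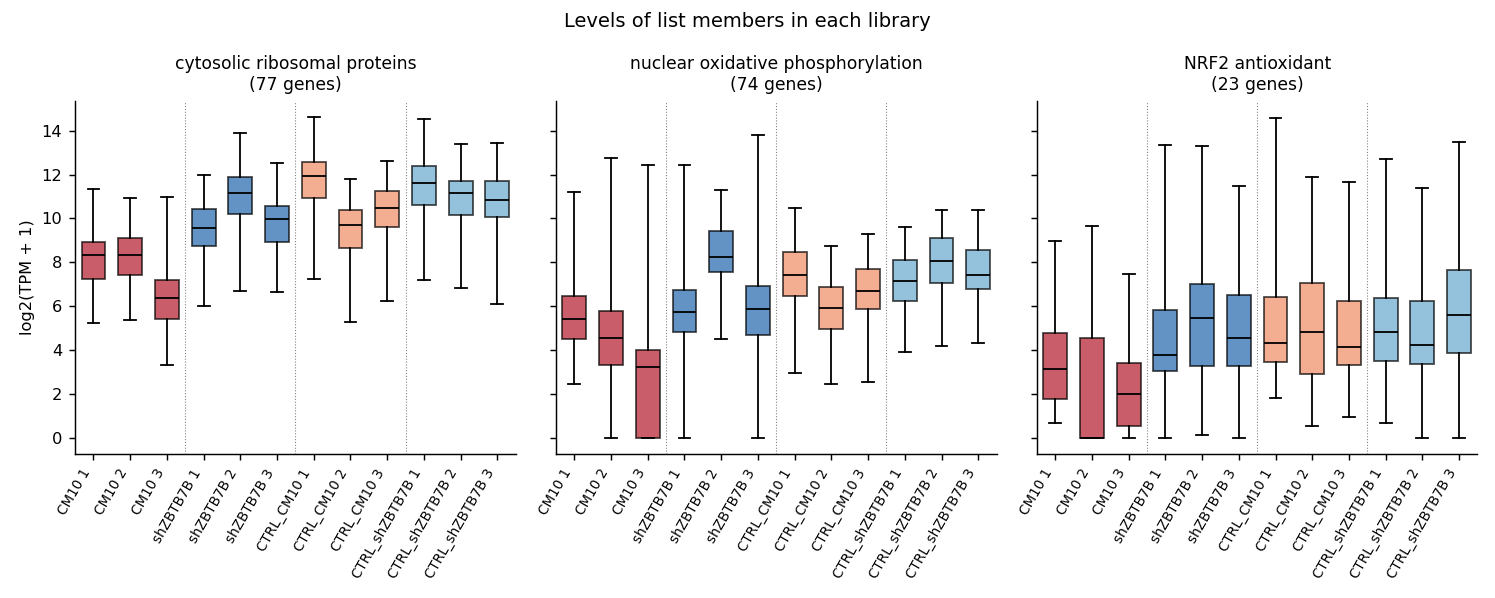
Boxes give the quartiles and whiskers the lowest and highest gene, on the log2(TPM + 1) scale, for 77 cytosolic ribosomal protein genes, 74 nuclear genes of oxidative phosphorylation and 23 antioxidant genes in each library. In the first panel the medians of the 3 CM10 libraries lie below those of all 9 other libraries. In the second the CM10 medians are also below the others, at 8.38 to 41.5 TPM, against 52.6 and 57.0 TPM in shZBTB7B replicates 1 and 3. The genes of CM10 overlap those of these replicates in level, and shZBTB7B replicate 2 has the highest median.

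Genes of mitochondrial energy supply had lower medians as well, with more overlap and more weight on single libraries. Of 74 nuclear genes for oxidative phosphorylation, 24 were lower without overlap, beside 14.3% of all genes, and 0 higher. Their median was -1.80 relative to all genes, and 26 were lower at an unadjusted p under 0.05, beside 8.28% of all genes. ATP5ME, a subunit of the ATP synthase, had 88.3, 106.1 and 0 TPM with CM10, against 176.9, 2542 and 504.7 TPM with the hairpin (limma, adjusted p = 0.38). NDUFS7 of complex I had 13.5, 0 and 0 TPM with CM10, against 78.3, 143.4 and 28.0 TPM with the hairpin (adjusted p = 0.27). UQCRH of complex III had 33.4, 34.5 and 14.4 TPM with CM10, against 104.4, 1120 and 248.0 TPM with the hairpin (adjusted p = 0.38). Hairpin replicate 2 carried much of this list's median, which was -0.79 relative to all genes without it, when 32.4% of the list and 23.9% of all genes were lower without overlap. It was -2.74 without hairpin replicate 3. Of 68 mitochondrial ribosomal proteins, 16 were lower and 3 higher without overlap, beside 14.3% and 8.07% of all genes. Without hairpin replicate 2, 17 of the 68 were lower, near the 23.9% of all genes. Their median relative to all genes was -1.14, with -0.45 without hairpin replicate 2, -0.70 without CM10 replicate 3 and -2.14 without hairpin replicate 3. MRPL16 had 4.26, 0 and 0 TPM with CM10, against 29.5, 57.2 and 34.96 TPM with the hairpin (adjusted p = 0.26).

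Antioxidant and iron storage genes were low in the CM10 libraries. Of 23 genes of the NRF2 program, which protects cells from oxidants, 13 were lower without overlap, beside 14.3% of all genes, 1 was higher and 0 were called, with a median of -1.81 relative to all genes. FTH1 and FTL encode the heavy and light chains of ferritin, the iron store of the cell. FTH1 had 411.8, 512.0 and 51.6 TPM in CM10 libraries, against 10378, 8857 and 2625 TPM in shZBTB7B libraries (difference -4.80, SE 1.99, limma adjusted p = 0.48). FTL had 498.8, 791.3 and 175.7 TPM with CM10, against 8158, 10038 and 2848 TPM with the hairpin (difference -3.90, SE 2.10, adjusted p = 0.57). Neither ferritin chain overlapped between the groups, and both chains were lower in CM10 libraries than in any control library. TXN, the disulfide reductase thioredoxin, had 31.5, 29.7 and 6.48 TPM with CM10, against 651.2, 588.8 and 160.2 TPM with the hairpin (adjusted p = 0.28). AKR1C3, an aldo-keto reductase, had 3.81, 0 and 7 TPM with CM10, against 70.5, 65.7 and 117.2 TPM with the hairpin (adjusted p = 0.26). The exception was GCLM, a subunit of the enzyme that starts glutathione synthesis, which had 40.6, 49.0 and 39.0 TPM with CM10, against 17.3, 3.51 and 18.9 TPM with the hairpin. The list's median relative to all genes stayed between -2.56 and -1.48 as single libraries were left out.

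Several other lists had low medians, again with no gene called. Of 12 S100 calcium-binding proteins, 6 were lower without overlap, beside 14.3% of all genes, with a median of -2.04 relative to all genes. S100A11 had 72.3, 29.4 and 0 TPM with CM10, against 1115, 855 and 744 TPM with the hairpin (difference -6.10, SE 1.47, adjusted p = 0.26). S100P, an S100 protein of gut and tumors, had 13.8, 59.4 and 26.1 TPM with CM10, against 294, 300.2 and 298 TPM with the hairpin (adjusted p = 0.38). Its 3 hairpin libraries were close together, while the CTRL_shZBTB7B libraries ran from 0 to 39.7 TPM. Of 31 proteasome subunits, 11 were lower without overlap, beside 14.3% of all genes, and 1 higher. Their median relative to all genes was -1.22, with -0.71 without CM10 replicate 3, -0.80 without shZBTB7B replicate 2, -2.08 without CM10 replicate 1 and -2.24 without shZBTB7B replicate 3. PSMA4 had 25.5, 0 and 0 TPM with CM10, against 80.6, 137.1 and 51.5 TPM with the hairpin (adjusted p = 0.28). Of 18 heat shock chaperones, 4 were lower without overlap, beside 14.3% of all genes. After rescaling 5.56% of the chaperones were, beside 9.43% of all genes. Their median relative to all genes was -1.20, with -0.71 without CM10 replicate 3 and -1.93 without shZBTB7B replicate 3. Of 10 histone genes, 5 were lower without overlap and 0 higher, beside 14.3% and 8.07% of all genes. The histone median relative to all genes was -1.16, or -2.18 without shZBTB7B replicate 3. HSPE1, the co-chaperonin of mitochondria, overlapped, with 31.5, 0 and 0 TPM with CM10, against 0, 278.7 and 222.8 TPM with the hairpin.

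Glycolysis, the pathway that the study tied to ZBTB7B through LDHA, had a median of -0.62 relative to all genes, with -0.38 without CM10 replicate 3 and -1.27 without shZBTB7B replicate 3. Of 23 genes, 9 were lower and 1 higher without overlap, beside 14.3% and 8.07% of all genes. GAPDH had 518.2, 404.8 and 41.3 TPM with CM10, against 1319, 1658 and 935 TPM with the hairpin (difference -2.62, SE 1.63, adjusted p = 0.57). PKM, the last kinase of the pathway, had 55.2, 2.52 and 10.02 TPM with CM10, against 91.0, 150.9 and 85.9 TPM with the hairpin (difference -3.04, SE 1.17, adjusted p = 0.45). HK2, the inducible hexokinase, had 0.37, 5.19 and 6.06 TPM with CM10, against 16.2, 13.9 and 17.9 TPM with the hairpin (difference -2.11, SE 1.11, adjusted p = 0.57). These levels lay below the hairpin range in each case. The exception was GPI, which isomerises glucose 6-phosphate, with 1002, 1167 and 1152 TPM with CM10, against 927, 50.5 and 907 TPM with the hairpin (difference 1.65, SE 1.74, adjusted p = 0.67). Of the 6 libraries, hairpin replicate 2 alone was low in GPI.

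The aldehyde dehydrogenases did not move together. Of 14 genes, 2 were higher and 2 lower without overlap, close to the 8.07% and 14.3% of all genes. Their median relative to all genes was 0.86, but -0.12 without shZBTB7B replicate 1, 0.41 without CM10 replicate 2 and 0.45 without CM10 replicate 3. ALDH1A3, a second enzyme of the inhibited class, had 2.88, 3.58 and 9.30 TPM with CM10, against 14.6, 34.8 and 54.2 TPM with the hairpin (difference -2.47, SE 1.06, adjusted p = 0.50). ALDH18A1, an enzyme of proline synthesis, had 2.39, 0 and 2.56 TPM with CM10, against 9.66, 8.57 and 31.2 TPM with the hairpin (adjusted p = 0.48). ALDH6A1, of valine breakdown, had 1593, 2699 and 1998 TPM with CM10, against 1034, 26.0 and 1134 TPM with the hairpin (difference 2.70, SE 1.92, adjusted p = 0.58). ALDH6A1 was also among the most abundant shared genes described below. ALDH5A1, of GABA breakdown, had 63.1, 51.4 and 67.1 TPM with CM10, against 27.1, 4.77 and 24.5 TPM with the hairpin (adjusted p = 0.57). Among 11 genes of retinoid transport, metabolism and signaling, 1 was higher and 1 lower without overlap, near the shares of all genes. The 1 that was higher was RDH10, which makes retinaldehyde from retinol, with 15.2, 42.0 and 31.8 TPM with CM10, against 13.8, 2.78 and 6.06 TPM with the hairpin (adjusted p = 0.57). FABP5, a carrier of fatty acids and retinoic acid, had 7.89, 44.8 and 0 TPM with CM10, against 349.6, 220.7 and 33.0 TPM with the hairpin, with overlap (adjusted p = 0.38).

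The remaining pathway lists lay near the median gene or varied with single libraries. Of 26 ZBTB factors, 1 was higher and 3 lower without overlap, beside 8.07% and 14.3% of all genes (median 0.09 relative to all genes). ZBTB25 was the one that was higher, at 196 to 234 TPM with CM10 against 2.49 to 195 TPM with the hairpin. Medians relative to all genes were 0.14 for 12 checkpoint ligands, 0.17 for 18 genes of the unfolded protein response, 0.13 for 23 immediate early genes, 0.03 for 18 cholesterol synthesis genes, 0.02 for 12 p53 targets and -0.03 for 16 genes of the epithelial-mesenchymal transition. For these 6 lists the median lay on both sides of 0 as single libraries were left out, between -0.46 and 0.73, with 0.45 for checkpoint ligands and 0.29 for cholesterol synthesis without shZBTB7B replicate 2. They were -0.49 for 13 proliferation genes, -0.75 for 17 genes of MHC class I presentation, -0.82 for 11 NF-kB targets and -0.94 for 26 interferon response genes. As single libraries were left out, they ran from -1.24 without shZBTB7B replicate 3 to -0.21 without shZBTB7B replicate 1 for proliferation, and from -1.30 without CM10 replicate 1 to -0.26 without shZBTB7B replicate 2 for MHC class I. Without shZBTB7B replicate 2 they were -0.51 for NF-kB targets and -0.50 for the interferon response. Within these lists, LGALS3, the galectin-3 gene, had 29.8, 20.99 and 0 TPM with CM10, against 539.7, 283.0 and 92.0 TPM with the hairpin (limma, adjusted p = 0.32). IFI27, an interferon-induced gene, had 55.6, 0 and 23.3 TPM with CM10, against 175.5, 511.0 and 191.5 TPM with the hairpin (adjusted p = 0.33). DDIT3, the stress factor CHOP, had 2.70, 0 and 0 TPM with CM10, against 8.88, 46.3 and 11.1 TPM with the hairpin (adjusted p = 0.38). MCM3, a subunit of the replicative helicase, had 4.67, 0 and 1.69 TPM with CM10, against 25.7, 15.8 and 11.3 TPM with the hairpin (adjusted p = 0.46). Each of these 4 genes was without overlap and below the hairpin libraries, but each was named as the largest difference of its list. Without overlap, 14.3% of all genes were lower and 8.07% higher. Beside these shares, 2 of 12 checkpoint ligands were lower and 0 higher. For the interferon response it was 6 lower and 3 higher of 26. For the unfolded protein response it was 1 lower and 0 higher of 18, and for proliferation 4 lower and 0 higher of 13. The medians of 5 metallothioneins (-1.73 relative to all genes) and 8 humanin-like MTRNR2L genes (-1.03) turned to 0.65 and 0.68 without hairpin replicate 2.

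**Figure D3:**
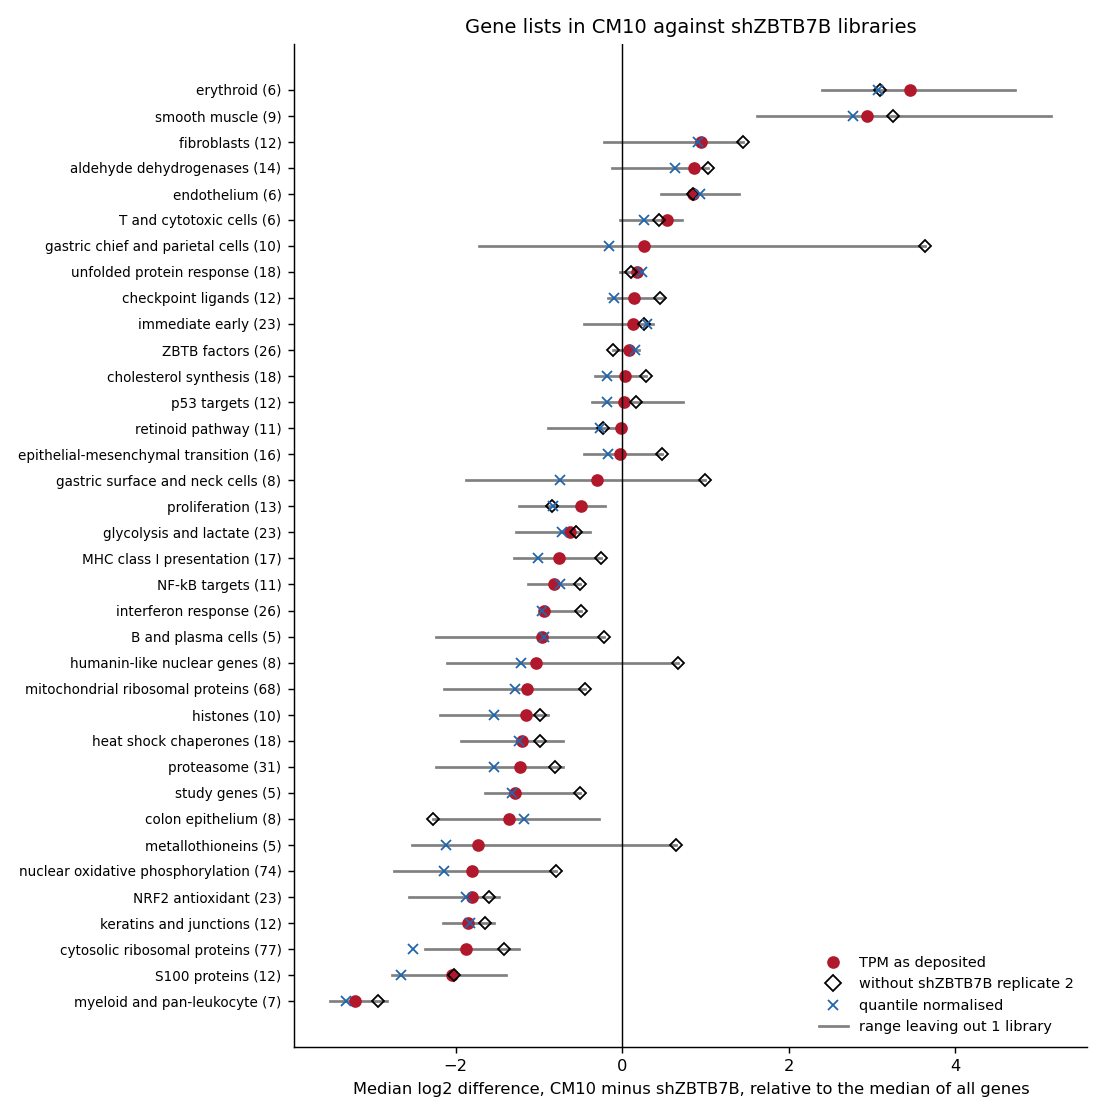
Median log2 difference of each gene list, CM10 minus shZBTB7B, relative to the median of all genes in the same fit. Filled circles are TPM as deposited, diamonds leave out shZBTB7B replicate 2, crosses are quantile normalised, grey lines span the fits that leave out 1 library each, and numbers in parentheses count genes tested. Cytosolic ribosomal proteins, antioxidant, S100, myeloid, keratin and oxidative phosphorylation genes are among the lists that stay below 0 throughout. Gastric, metallothionein and humanin-like genes are among those that cross 0.

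Several epithelial and myeloid markers were also lower in value with CM10, though none was called. KRT19, an epithelial keratin, had 0, 0 and 5.79 TPM with CM10, against 123.9, 31.1 and 83.9 TPM with the hairpin (limma, adjusted p = 0.26). KRT8 and KRT18, its partners in simple epithelia, were also lower without overlap, at 13.1 to 21.7 TPM and 0 to 22.7 TPM with CM10, against 117 to 361 TPM and 149 to 234 TPM with the hairpin. Of 12 keratin and junction genes 8 were lower and 1 higher without overlap, beside 14.3% and 8.07% of all genes, and the whole list summed to 146.2, 206.8 and 190.1 TPM with CM10, against 968.4, 365.3 and 812.3 TPM with the hairpin. PHGR1, a colon epithelial transcript, had 31.6, 0 and 0 TPM with CM10, against 376.6, 71.4 and 69.0 TPM with the hairpin (adjusted p = 0.27). The median of the colon list relative to all genes was -1.36, with -2.27 without shZBTB7B replicate 2 and -0.28 without shZBTB7B replicate 1. Of 7 myeloid and pan-leukocyte genes, 5 were lower without overlap, beside 14.3% of all genes, among them CD68, at 3.75, 3.71 and 0 TPM with CM10, against 30.4, 51.3 and 40.7 TPM with the hairpin. LYZ, the lysozyme gene on the same list, had 2897, 3340 and 3408 TPM with CM10, against 2498, 91.2 and 3799 TPM with the hairpin. LYZ was also among the most abundant shared genes described below. It set the list's sum, at 2955 to 3411 TPM with CM10 and 940.5 to 4053 TPM with the hairpin. Fewer cells of a type and less RNA per cell cannot be told apart in bulk libraries.

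The erythroid and smooth muscle lists went the other way in their medians, without separating the groups. Globin genes led the erythroid list, whose median relative to all genes was 3.45. HBA2 had 1201, 2765 and 877 TPM with CM10, against 0, 23.3 and 1386 TPM with the hairpin (adjusted p = 0.41). Of 9 smooth muscle genes, 0 were without overlap, beside 22.4% of all genes, although their median relative to all genes was 2.95. MYH11, the smooth muscle myosin, had 1102, 70.6 and 3.07 TPM with CM10, against 0, 11.3 and 12.5 TPM with the hairpin (adjusted p = 0.52). The level came from CM10 replicate 1, and CTRL_shZBTB7B replicate 2 held 7845 TPM. THY1, a fibroblast and stem cell surface protein, had 113.3, 125.9 and 98.5 TPM with CM10, against 33.5, 4.38 and 58.8 TPM with the hairpin (adjusted p = 0.56). It was the 1 of 12 fibroblast genes that was higher without overlap, beside 8.07% of all genes, and 0 were lower. The median of that list relative to all genes was 0.95, but -0.21 without CM10 replicate 1. TIE1, an endothelial receptor, and VSIG1, of gastric epithelium, overlapped, at 82.0 to 146.0 TPM and 165.3 to 294.5 TPM with CM10, against 1.39 to 103.7 TPM and 6.67 to 182.9 TPM with the hairpin. Without shZBTB7B replicate 2 the median of the stomach gland list relative to all genes went from 0.27 to 3.63. That of the gastric surface and neck list went from -0.31 to 0.99. PRF1 of cytotoxic cells was at 0 to 2.98 TPM with CM10 and 1.77 to 11.3 TPM with the hairpin. JCHAIN of plasma cells was at 8.66 to 57.1 TPM with CM10 and 15.98 to 3108 TPM with the hairpin. Of 6 T and cytotoxic genes and 5 B and plasma cell genes, 0 were without overlap, beside 22.4% of all genes. The medians of these lists relative to all genes were 0.53 and -0.96, and the second was -0.21 without shZBTB7B replicate 2. For the summed level of each of the 11 marker lists the exact permutation test gave p of 0.1 or more, where 0.1 is the smallest possible, and 0.75 or more after adjustment over 15 library measures.

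A large part of the TPM in 5 of the 6 libraries came from the same genes. A total of 103 genes reached 1000 TPM or more in all 3 CM10 libraries and in shZBTB7B replicates 1 and 3. They were chosen by these levels, so what follows describes them. They took 57.7%, 53.1% and 61.9% of TPM in CM10 libraries, against 53%, 17.1% and 41.2% in shZBTB7B libraries, and only 2 of them reached 1000 TPM in shZBTB7B replicate 2. The share in that library came mostly from MTRNR2L2, a humanin-like gene with near-identical copies, which had 4785, 17165 and 1823 TPM with CM10, against 1631, 161524 and 5511 TPM with the hairpin. CCL5, a chemokine that attracts T cells, had 76121, 51472 and 63268 TPM with CM10, against 63373, 519 and 41982 TPM with the hairpin. RAB3B, a small GTPase of secretory vesicles, had 24202, 22739 and 29273 TPM with CM10, against 27239, 116.1 and 18929 TPM with the hairpin. Both were high in the same 5 libraries and low in hairpin replicate 2. MFN1, a mitochondrial fusion GTPase, was the most abundant of these genes without overlap, at 24112 to 28068 TPM with CM10, against 113 to 23885 TPM with the hairpin.

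Most of these genes stood in similar proportions in the CM10 libraries and in hairpin replicates 1 and 3, the libraries by which they were chosen. RAB3B stood at 0.318, 0.442 and 0.463 of the CCL5 value in CM10 libraries, and at 0.430 and 0.451 in hairpin replicates 1 and 3. PNO1, a ribosome assembly factor, stood at 0.245, 0.244 and 0.249 of the CCL5 value with CM10, and at 0.236 and 0.230 in the same hairpin replicates. In hairpin replicate 2, RAB3B stood at 0.224 and PNO1 at 0.175. MTRNR2L2 varied more, from 0.026 to 0.33 in the CM10 libraries and hairpin replicates 1 and 3, and stood at 311 in hairpin replicate 2. Over the 103 genes, Pearson's r of log2(TPM + 1) was 0.90 to 0.98 between CM10 libraries and hairpin replicates 1 and 3, against 0.95 to 0.97 among CM10 libraries. It was 0.43 to 0.61 between CM10 libraries and hairpin replicate 2. These are correlations across genes of libraries scaled to 1 total, and genes are not independent replicates. CTRL_CM10 replicate 1 had the same genes at a median of 307.8 TPM and an r of 0.73 to 0.85 with CM10 libraries. In the other 5 control libraries their median was 5.38 to 17.9 TPM.

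Transcript length moved with the difference. The 11139 tested genes with a protein-coding transcript in the GENCODE annotation of GRCh37 (hg19) were divided into 8 bins by the length of their longest transcript. In the shortest bin, 227 to 1681 bases, the median difference was -1.87, and 29.5% of 1393 genes were lower and 1.51% higher without overlap. In the longest bin, 7565 to 34626 bases, it was -0.10, and 5.82% of 1392 genes were lower and 13.2% higher. Without hairpin replicate 2 the medians were -1.29 in the shortest bin and -0.50 in the longest. Between the controls they were -0.96 and -1.01. In CM10 replicates 1 to 3, 7.75%, 38.3% and 47.1% of the shortest genes were listed at 0, against 25.6%, 3.73% and 21.8% in shZBTB7B replicates 1 to 3. The part of transcript length in the values of the gene lists was not tested.

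**Figure D4:**
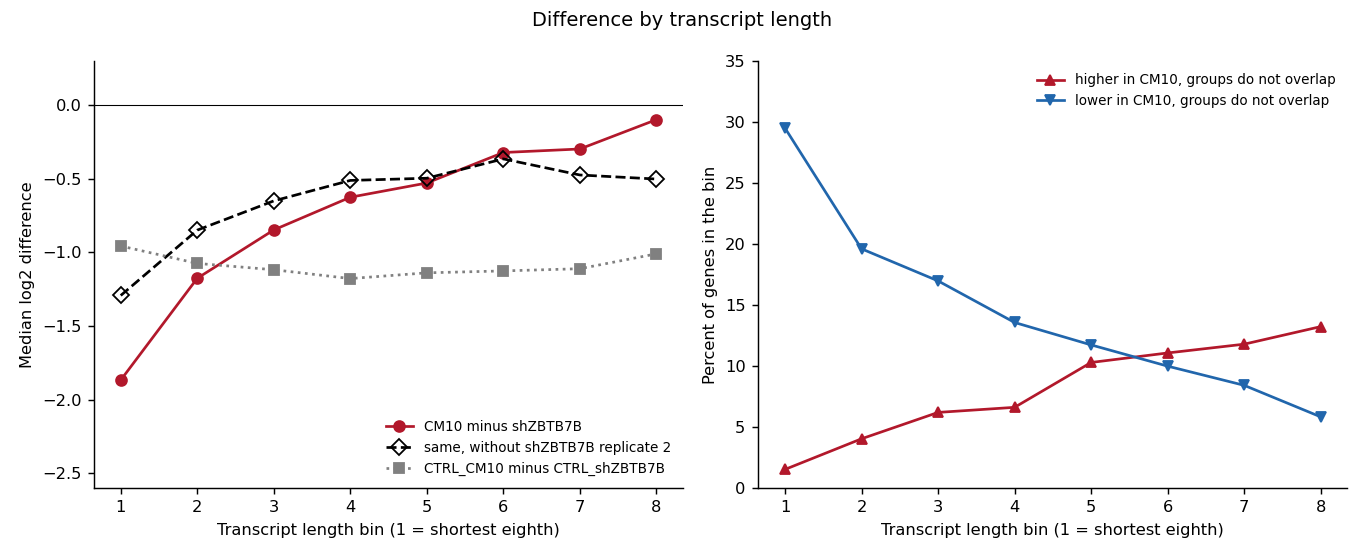
Left, the median log2 difference of genes in 8 bins of transcript length for CM10 minus shZBTB7B, for the same without shZBTB7B replicate 2, and for CTRL_CM10 minus CTRL_shZBTB7B. Right, the percent of genes in each bin that were higher or lower with CM10 without overlap. The median goes from -1.87 in the shortest to -0.10 in the longest bin with all libraries, while the controls stay between -1.18 and -0.96.

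Among genes at 50 TPM or more in all 6 libraries, FABP3, CYBA, HMGB1, SDHC and ANAPC16 differed least in value. HMGB1, an abundant chromatin protein, had 103.8, 107.1 and 103.1 TPM with CM10, against 118.4, 125.3 and 91.4 TPM with the hairpin. Its difference was -0.08 with a 95% interval from -2.48 to 2.32, so the test could not tell a sizeable change from none. SDHC, of the succinate dehydrogenase complex, had 125.3, 148.5 and 126.0 TPM with CM10, against 149.8, 133.7 and 96.4 TPM with the hairpin, with an interval from -2.38 to 2.56.

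The effects of the perturbations, each against its own controls, were compared in 1 fit over the 12 libraries. No gene was called for a difference between the effects (0 of 11367; smallest adjusted p 0.057), and 1019 had an unadjusted p under 0.05 (8.96%). CDC42EP5, CRNDE and ROMO1 shared that adjusted p. CDC42EP5 was at 0 in CM10 and at 60.01, 57.13 and 21.52 TPM in CTRL_CM10, whereas shZBTB7B had 112.7, 48.2 and 44.6 TPM against 28.5, 16.3 and 22.5 TPM in CTRL_shZBTB7B. The median difference between the effects was 0.50 for all genes and -1.99 for the cytosolic ribosomal proteins. For LDHA it was -0.79 (adjusted p = 0.88), for ZBTB7B 1.11 (adjusted p = 0.80) and for ALDH1A1 -3.64 (adjusted p = 0.63).

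The controls of the experiments also differed in value. With limma no gene was called between CTRL_CM10 and CTRL_shZBTB7B, but 3523 had an unadjusted p under 0.05 (31.0%), 57 of them higher and 3466 lower in CTRL_CM10. After quantile normalisation there were 919, with 425 higher and 494 lower. The control groups did not overlap for 4596 genes (40.4%), of which 4525 lay lower in CTRL_CM10 (39.8%). The median difference was -1.08, and -0.03 after quantile normalisation. Of the 1628 genes lower in CM10 than in shZBTB7B without overlap, 39.1% were also lower in CTRL_CM10 without overlap, beside 39.8% of all genes. Of the 917 genes that were higher with CM10, 17.1% were lower in CTRL_CM10 without overlap.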

How the data were processed

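RNA was measured in 12 libraries made with probe capture. The deposited values were taken as TPM estimated by the authors with RSEM after HISAT alignment to hg19, from the study's methods and because each library sums to 1000000; the headers name no unit, and no source used here gives the tool versions. Genes that every cell uses can be listed at exactly 0, so 0 is described only as listed. The tables were quantified separately and joined by symbol; levels set across them may carry differences between experiments. Levels were tested as log2(TPM + 1), a scale that understates changes of low genes, with limma 3.58.1 in R 4.3.3 (variance trend, two-sided, Benjamini-Hochberg over 11367 genes, adjusted p under 0.05). The direct comparison used the 6 libraries, the difference of effects all 12, and the comparison of controls 6. The direct fit was tested on simulated normal values without a floor at 0. That test therefore does not cover genes listed at 0 throughout a group, such as ROMO1. Library measures were tested by exact permutation.

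Genes named are those followed by the study, called genes filled up to 10 per direction by smallest p without overlap at a mean of at least 10 TPM, those of the 10 highest means, the largest difference per list where none was called and the 5 least different; any others were picked once values had been seen. The 36 gene lists and members were chosen with earlier results of these data known. A gene whose presence varies between people is left out, and some items are not reported here. Alternatives were quantile normalisation, no filter, a pseudocount of 0.1, a replicate block, leaving out each library, 1 fit over 12 libraries, the study's thresholds and 2 rescalings. Python 3.11.15, numpy 2.4.6, pandas 2.3.3 and scipy 1.17.1 were used.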

Additional observations from a re-analysis of the deposited data

Results flagged for a closer look

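For 3 of the genes named, every CM10 library moved one way from its controls and every shZBTB7B library the other way from its own, as 84 of the 11367 genes tested did. In limma's test of the difference between the effects none of the 3 passed (adjusted p of CDC42EP5 0.057 and of FAM3D 0.16). For CDC42EP5 the effects differed by -6.90 on the log2(TPM + 1) scale, a value that depends on the pseudocount because CM10 libraries were listed at 0. For FAM3D, at 0 TPM in CM10 libraries and 1.93 to 59.95 TPM in CTRL_CM10, with 17.56 to 215.28 TPM in shZBTB7B and 0.20 to 0.64 TPM in CTRL_shZBTB7B, they differed by -8.25. For THY1, at 98.51 to 125.87 TPM in CM10 and 4.66 to 71.66 TPM in CTRL_CM10, with 4.38 to 58.82 TPM in shZBTB7B and 60.91 to 167.21 TPM in CTRL_shZBTB7B, they differed by 4.61 (adjusted p = 0.48). Groups of 3 libraries were too small to test single libraries as outliers.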

How the results depend on the processing

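The count of 1 called gene in the direct comparison stayed at 1 after quantile normalisation, without the filter, and after either rescaling. The rescaling without the shared abundant genes was chosen after seeing the data. The count was 0 with a pseudocount of 0.1, 0 at the study's thresholds, 0 to 0 as single libraries were left out, and 5, all lower with CM10, in 1 fit over 12 libraries. With the replicate number as a block it was 46, all lower with CM10, but deviations of same-numbered CM10 and shZBTB7B libraries correlated at -0.27, -0.10 and 0.41, so the numbers do not pair the libraries and the block was not used. For the difference of effects, the count of 0 became 2 after quantile normalisation and 2 with a pseudocount of 0.1, and was 0 to 2 as single libraries were left out, with 2 without shZBTB7B replicate 2 or CTRL_CM10 replicate 1. The comparison of controls stayed at 0 throughout, and the block left both counts at 0. The cause of these changes was not tested.

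Of the genes named, signs changed only among those with small differences or a high hairpin replicate 2. After quantile normalisation the differences were -0.11 for FABP3, -0.024 for CYBA and -0.0045 for SDHC. After rescaling without MTRNR2L genes they were -0.11 for FABP3, -0.10 for CYBA and -0.065 for SDHC, and without the shared abundant genes 0.45 for HMGB1. Leaving out single libraries gave -4.39 to 0.49 for ALDH1A1, -2.49 to 0.82 for MTRNR2L2, -2.90 to 0.52 for MTRNR2L8, -0.21 to 0.48 for FABP3, -0.15 to 0.24 for CYBA, -0.22 to 0.0077 for HMGB1, -0.091 to 0.22 for SDHC and -0.37 to 0.51 for ANAPC16. TPM carries no depth, so no limit from counting can be given.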
